A study of Mus musculus with 6 samples.

Results

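The 35 genes described here carry glucose into the cell, convert it to pyruvate, exchange pyruvate with lactate, move both across membranes and admit pyruvate to the mitochondrial matrix. They were chosen by gene name, and all 35 were found among the 46983 features of the deposited table. RNA-seq was made from oligodendrocytes freshly isolated from mouse brain and not cultured, with 3 libraries from Plp-CreERT2;QK LoxP/LoxP mice (Qk-KO, genotype label Qk-/-) and 3 from control mice (WT). All mice were of an FvB/C57BL6 hybrid strain, received tamoxifen at 8 weeks of age, and gave their brains 4 days later. Qk encodes quaking, an RNA-binding protein of glia, and the study asked which genes differ in expression between the genotypes. Cre was driven by the promoter of Plp, a myelin protein gene, so deletion is directed at cells in which that promoter is active. The labels do not say which alleles the controls carry, nor whether the libraries of a group came from different mice, so the p-values reflect only the scatter among the libraries, which may be technical.

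Glycolysis splits glucose into pyruvate in the cytosol and yields ATP and NADH; lactate dehydrogenase then interconverts pyruvate and lactate, and the pyruvate dehydrogenase complex converts pyruvate to acetyl-CoA inside mitochondria. The kinases of that complex switch it off by phosphorylation, and its phosphatases switch it back on. Myelinating oligodendrocytes are known for active glycolysis and for passing lactate to the axons they wrap, through the monocarboxylate carrier encoded by Slc16a1.

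Values below are the authors' regularized log2 normalized counts, and a change is the Qk-KO mean minus the WT mean with its standard error (n = 3 libraries per group). A gene was called when its limma adjusted p, over the 15153 features whose mean normalized count reached 20, was under 0.05. All 35 members passed that filter, and gene positions below are those of GENCODE M21 on GRCm38. Of them, 4 were called higher in Qk-KO (Pfkfb3, Pkm, Pdhb and Pdk3), which is 11.4% of members where 13.8% of all tested features were called higher. Another 6 were called lower (Slc2a1, Pfkm, Pfkp, Eno1, Ldhb and Pdha1), which is 17.1% where the figure for all tested features was 14.8%. The members' calls therefore came at about the rate of the whole table, and the median change was 0.12 over the members and 0.03 over all tested features. In 18 members the values of the 2 groups did not overlap: 10 were higher in every Qk-KO library (28.6%, against 24.5% of all features) and 8 were lower (22.9%, against 21.8%). The authors' deposited table, made with DESeq2, called all 10 of these genes as well, and in total 8 members higher (22.9%, against 16.5% of its tested features) and 6 lower (17.1%, against 16.4%). The 4 that were called only there, all higher, were Hk2, Gpi1, Aldoa and Mpc1.

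**Figure D1:**
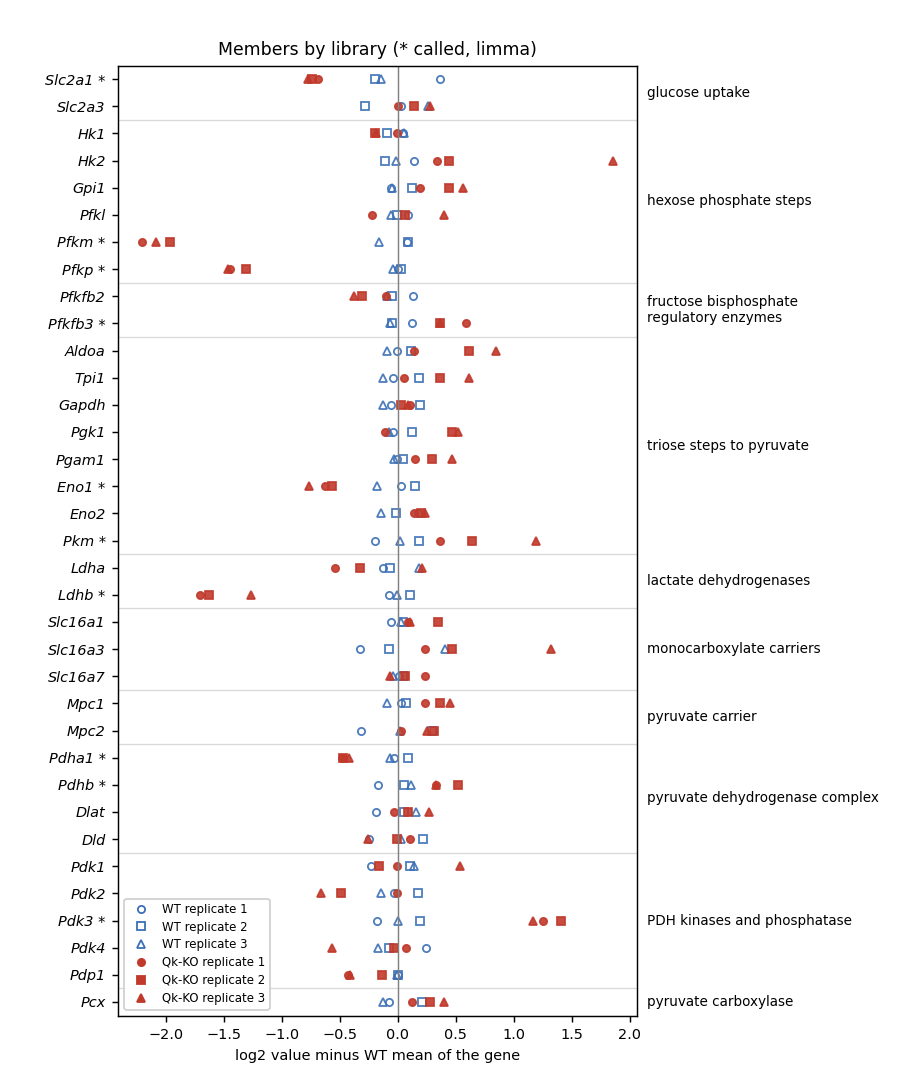
Log2 value of each of the 35 members in each library, minus the mean of the 3 WT libraries for that gene (horizontal axis), with open blue symbols for WT, filled red symbols for Qk-KO and stars for the 10 members called by limma. Pfkm, Pfkp and Ldhb stand far to the left in all 3 Qk-KO libraries and Pdk3 far to the right, whereas Hk2 and Slc16a3 stand apart mainly in Qk-KO replicate 3.

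The libraries were not alike in depth or in kind. The WT libraries and Qk-KO replicate 1 held 8700000 to 13100000 reads outside ribosomal RNA, as estimated from the table, and 59.83% to 64.84% of their signal was ribosomal. Qk-KO replicates 2 and 3 held 77100000 and 70000000 such reads, with 2.23% and 1.88% ribosomal signal. Each result was therefore also computed with Qk-KO replicate 1 alone against the 3 WT libraries, a fit that assumes the lone library to scatter as the WT group does. There, 2 members were called higher (Pfkfb3 and Pdk3, 5.71%, against 6.17% of all features) and 4 lower (Pfkm, Pfkp, Eno1 and Ldhb, 11.4%, against 9.37%). Qk itself had log2 values of 15.41, 15.67 and 15.31 in WT against 16.10, 15.62 and 15.30 in Qk-KO (change 0.21 ± 0.25, limma adjusted p = 0.567), a whole-gene value that checks nothing about deletion of part of the gene. The lowest estimated read number of any member in any library was 55, for Slc2a3.

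Markers of the labelled cell type were abundant in every library: the summed normalized level of 12 oligodendrocyte genes was 559258 to 728979 in WT and 746923 to 844998 in Qk-KO, with 6 called higher by limma (Mbp, a myelin protein, rose by 1.07). Markers of other brain cells were present as well, and none of the listed genes was at zero. The summed level of 12 astrocyte genes was 127049 to 155977 in WT and 17134 to 26977 in Qk-KO, with 11 called lower and a median change of -2.83 (Slc1a2, a glutamate transporter, -2.48). The remaining astrocyte gene, Gfap, went the other way (0.81). It was not called by limma, but was called higher in the authors' deposited table (0.99, DESeq2 adjusted p = 0.00873). All 12 endothelial genes were called lower (median -0.92; summed level 29875 to 41922 in WT and 17641 to 19011 in Qk-KO), as were 8 of 10 mural genes (median -0.81; 24150 to 28581 and 12879 to 14247). Of 12 microglial genes 6 were called higher (median 1.54), with summed levels of 7854 to 12673 in WT, 18611 and 19982 in Qk-KO replicates 1 and 2 and 72112 in replicate 3. With library type (low or high ribosomal signal) as a term, limma called 0 of the microglial genes and 3 of the oligodendrocyte genes higher. At an unadjusted p under 0.05 it was 1 microglial gene, and the authors' deposited table, without that term, called 2. With the term, 11 astrocyte, 10 endothelial and 8 mural genes were still called lower. Only Qk-KO replicates 2 and 3 are of low ribosomal signal. The fit with that term therefore estimates the same change as Qk-KO replicate 1 alone (microglial median 1.0 in both). These fits differ in the scatter they use, so they are not separate checks. The 0 microglial calls with the term do not show the absence of a rise in Qk-KO replicate 1. Of 12 neuronal genes 3 were called higher (median 0.04; 2548 to 2973 and 5737 to 7065), and limma called 0 of 8 oligodendrocyte precursor genes (0 at an unadjusted p under 0.05, 0 in the authors' deposited table; median -0.20; 6295 to 17533 and 5987 to 13149). The oligodendrocyte, astrocyte, endothelial, mural and microglial lists moved with the genotype beside every member below. The list medians in Qk-KO replicates 1, 2 and 3 had no single sign for precursors (0.51, 0.23 and -1.08) or neurons (0.48, 0.11 and -0.34). The part of any list in the members' changes was not tested. In bulk RNA, fewer cells of a type and less RNA per cell cannot be told apart.

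**Figure D2:**
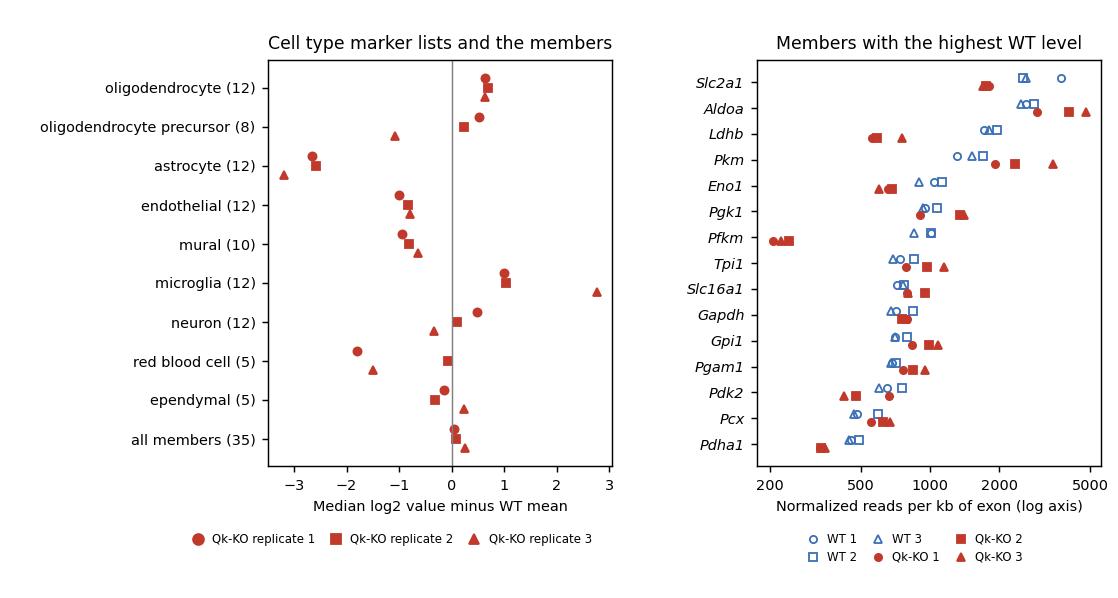
Left, the median over each marker list of the log2 value minus the WT mean, for each Qk-KO library, with the number of genes in brackets; right, the level per kilobase of exon (log axis) of the 15 members with the highest WT mean, with open symbols for WT and filled symbols for Qk-KO. The astrocyte list lies at -2.66, -2.58 and -3.19, the microglial list at 1.0, 1.03 and 2.76, and the 35 members together at 0.05, 0.09 and 0.25.

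Per kilobase of annotated exon, Slc2a1 was the most abundant member in WT (2970 ± 674 normalized reads per kilobase, SD, n = 3), followed by Aldoa (2650 ± 182), Ldhb (1820 ± 117) and Pkm (1520 ± 200). The length counts every exon of any annotated transcript, 13.4 kb for Pfkp and 3.51 kb for Slc2a1. It can exceed that of the transcripts present, so ranks between genes are rough. The ranges of Slc2a1 (2540 to 3750) and Aldoa (2490 to 2850) overlapped, so their order is not separated from the spread. In Qk-KO the order was Aldoa (3910 ± 936), Pkm (2570 ± 774) and Slc2a1 (1750 ± 55.1), with overlapping ranges for the leading pair. Ldhb moved from rank 3 to rank 11 and Pfkm from rank 7 to rank 22, while Pdk3 moved from rank 21 to rank 13. Slc2a3, a glucose transporter best known from neurons, had the lowest mean in both groups (19.5 ± 3.55 and 21.2 ± 2.0), with ranges that overlapped those of Slc16a7 (21.7 ± 0.557 and 22.8 ± 2.41).

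Upstream promoter sequence is shown for the members with the largest falls and the largest rise among those with a single start in RefSeq, so that RefSeq gives a single stretch upstream: Pfkp and Ldhb fell and Pdk3 rose. The stretches are the 250 bases before the RefSeq start, from assembly GRCm38.p6 (the mm10 genome), at chr13:6648772-6649021, chr6:142507958-142508207 and chrX:93832151-93832400, all on the minus strand and written 5′ to 3′. Capitals mark ACGTG or GCGTG on either strand, the core letters of the hypoxia response element to which HIF proteins, known regulators of glycolytic genes, bind; the last 4 letters of the pair are the same.
Pfkp: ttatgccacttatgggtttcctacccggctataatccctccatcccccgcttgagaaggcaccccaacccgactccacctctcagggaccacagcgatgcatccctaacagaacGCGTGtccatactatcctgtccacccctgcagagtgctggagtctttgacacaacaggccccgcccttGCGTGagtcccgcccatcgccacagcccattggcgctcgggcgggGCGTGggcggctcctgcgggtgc
Ldhb: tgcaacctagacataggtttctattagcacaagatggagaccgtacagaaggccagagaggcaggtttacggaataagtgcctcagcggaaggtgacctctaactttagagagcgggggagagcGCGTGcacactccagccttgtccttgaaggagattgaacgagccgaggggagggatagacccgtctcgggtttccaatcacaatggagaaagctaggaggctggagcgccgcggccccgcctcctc
Pdk3: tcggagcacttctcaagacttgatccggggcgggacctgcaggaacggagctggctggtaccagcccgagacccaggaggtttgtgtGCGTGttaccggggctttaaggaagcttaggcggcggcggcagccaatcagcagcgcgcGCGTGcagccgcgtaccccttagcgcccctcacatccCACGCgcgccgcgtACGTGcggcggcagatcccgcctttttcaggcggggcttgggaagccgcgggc
Pfkp held 3 copies of GCGTG and Ldhb 1, while Pdk3 held 3 copies of GCGTG and 1 of ACGTG. Promoter entries were matched for 32 of the 35 members, 49 starts in all. On either strand, ACGTG occurred in 40.8% of these 49 stretches and in 16.6% of all 32851 RefSeq stretches of the same length, and the other form, GCGTG, in 49.0% and 28.2%. The GC box GGGCGG occurred in 51.0% and 32.7%, and AAGGTCA, the core of sites for estrogen-related receptors, in 2.04% and 4.08%. The letters of the hypoxia core stood in the stretches of all 3 genes printed, of which Pdk3 rose and Pfkp and Ldhb fell. These matches describe the letters only. In GENCODE M21 the Pfkp and Pdk3 genes reach to 6648777 and 93832201, so the ends of their stretches lie inside the annotated genes. These parts run from 6648772 to 6648777 for Pfkp and, longer, from 93832151 to 93832201 for Pdk3.

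Glucose uptake was represented by 2 transporter genes. Slc2a1, which encodes the main glucose transporter of glia and of the blood-brain barrier (chromosome 4, 119108711 to 119137983), had log2 values of 13.68, 13.12 and 13.17 in WT against 12.63, 12.58 and 12.54 in Qk-KO. All 3 Qk-KO libraries lay below all WT libraries, with WT replicate 1 the highest. The change was -0.74 ± 0.17 (limma adjusted p = 0.0139), a level 1.67 times lower, and 0.32 when libraries were scaled by their total alone. Without Qk-KO replicate 2 its adjusted p was 0.0534, and with Qk-KO replicate 1 alone the change was -0.70 (limma adjusted p = 0.0844). The 12 endothelial markers, cells in which this transporter is also abundant, fell beside it, as given above. Slc2a3 had a change of 0.13 ± 0.18 (95% interval -0.28 to 0.55, limma adjusted p = 0.611) and its groups overlapped.

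In the hexose phosphate steps, the phosphofructokinase genes Pfkm and Pfkp fell, Pfkm by more than any other member. Phosphofructokinase commits the sugar to glycolysis and is built from muscle (Pfkm), liver (Pfkl) and platelet (Pfkp) type subunits. Pfkm (chromosome 15, 98092589 to 98132451) had log2 values of 11.71, 11.72 and 11.47 in WT against 9.42, 9.66 and 9.54 in Qk-KO. The groups were separated by far more than the spread within either, and the change was -2.09 ± 0.12 (limma adjusted p = 8.73e-05), a level 4.27 times lower. Pfkp (chromosome 13, 6579768 to 6648777) had log2 values of 10.72, 10.75 and 10.68 in WT against 9.27, 9.41 and 9.25 in Qk-KO. Here too no library crossed over, and the change was -1.41 ± 0.10 (limma adjusted p = 0.000127), 2.65 times lower. Qk-KO replicate 1 alone gave -2.21 for Pfkm and -1.44 for Pfkp (limma adjusted p = 0.000259 and 0.000729).

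Pfkl did not follow its paralogs. Its log2 values were 10.15, 10.05 and 10 in WT against 9.84, 10.12 and 10.46 in Qk-KO, so that the Qk-KO libraries lay below, among and above the WT libraries (change 0.07 ± 0.16, 95% interval -0.30 to 0.45, limma adjusted p = 0.758). Per kilobase, the summed level of the 3 genes was 1240 ± 99.1 in WT and 442 ± 47.1 in Qk-KO (SD, n = 3). Pfkm made up 77.3%, 77.8% and 75.5% of that sum in WT and 52.8%, 52.8% and 46.5% in Qk-KO. Pfkl made up 13.1%, 12.2% and 13.6% in WT against 35.4%, 36.2% and 44.1% in Qk-KO. The share of Pfkp was 10.2% ± 0.656 and 10.8% ± 1.21, with overlapping values. A share within a library does not depend on how libraries are scaled, but it does depend on the exon lengths used. The families were grouped after their values had been seen, so their shares are a description without a test.

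The other hexose phosphate genes did not pass the test in the 6-library fit. Hk1 and Hk2 encode hexokinases, which trap glucose as its phosphate. Hk1 had a change of -0.14 ± 0.11 (limma adjusted p = 0.374). Hk2 had log2 values of 7.61, 7.36 and 7.45 in WT against 7.81, 7.91 and 9.33 in Qk-KO. All Qk-KO libraries were above WT, but replicate 3 stood more than 1 log2 unit above the other two, and the change was 0.88 ± 0.37 (limma adjusted p = 0.110). The authors' deposited table gives Hk2 a log2 fold change of 1.36 (adjusted p = 0.0125). Replicate 3 is also the library with the highest microglial markers. Gpi1, which encodes the isomerase that turns glucose phosphate into fructose phosphate, had 12.14, 12.32 and 12.15 in WT against 12.39, 12.64 and 12.76 in Qk-KO. Its groups did not overlap and its change was 0.39 ± 0.13 (limma adjusted p = 0.0605).

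The bifunctional enzymes Pfkfb2 and Pfkfb3 make and degrade fructose bisphosphate of the kind that activates phosphofructokinase. Pfkfb3 (chromosome 2, 11471433 to 11554077), whose enzyme mainly makes the activator, had log2 values of 11.05, 10.88 and 10.86 in WT against 11.52, 11.29 and 11.29 in Qk-KO. Every Qk-KO library was above every WT library, and the change was 0.43 ± 0.12 (limma adjusted p = 0.0264), 1.35-fold higher. It was 0.59 with Qk-KO replicate 1 alone (limma adjusted p = 0.0312). Leaving out WT replicate 2, its replicate 3, or Qk-KO replicate 2 gave adjusted p-values of 0.0760, 0.0979 and 0.0686. Pfkfb2 had the opposite sign, -0.25 ± 0.13 (limma adjusted p = 0.173), with all Qk-KO libraries below WT.

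From aldolase to pyruvate, 1 of 8 members was called higher and 1 lower. Eno1 (chromosome 4, 150236721 to 150248879) encodes the ubiquitous enolase, which makes phosphoenolpyruvate. Its log2 values were 12.44, 12.56 and 12.23 in WT against 11.78, 11.84 and 11.64 in Qk-KO. The lowest WT library was above the highest Qk-KO library, and the change was -0.66 ± 0.13 (limma adjusted p = 0.00734), 1.58 times lower, although 0.40 with scaling by library total alone. With Qk-KO replicate 1 alone it was -0.63 (limma adjusted p = 0.0389). Reads can be shared with Eno1b, a near-identical copy listed at 8.92, 9.91 and 10.17 in WT against 5.54, 8.26 and 9.66 in Qk-KO, so the value of Eno1 is uncertain by that share. Eno2, the neuronal enolase, had a change of 0.19 ± 0.14 (limma adjusted p = 0.336).

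Pkm (chromosome 9, 59656368 to 59679375) encodes pyruvate kinase, which makes pyruvate and ATP. It had log2 values of 12.68, 13.06 and 12.90 in WT against 13.24, 13.52 and 14.07 in Qk-KO. The groups did not overlap, with replicate 3 the highest of all, and the change was 0.73 ± 0.22 (limma adjusted p = 0.0402), 1.66-fold higher. The table holds a single value per gene and does not separate the splice forms of Pkm. Its call was lost without WT replicate 1, 2 or 3 (adjusted p = 0.139, 0.0638 and 0.107) and without Qk-KO replicate 2 or 3 (0.0909 and 0.0617). Qk-KO replicate 1 alone gave 0.36 (limma adjusted p = 0.221).

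The remaining members of the triose steps did not pass the test. Aldoa, the aldolase of most tissues, had log2 values of 12.90, 13.02 and 12.82 in WT against 13.05, 13.52 and 13.76 in Qk-KO. Its groups did not overlap, although Qk-KO replicate 1 lay only just above the highest WT library, and the change was 0.53 ± 0.19 (limma adjusted p = 0.0676; 0.65 with adjusted p = 0.0186 in the authors' deposited table). Pgam1, a phosphoglycerate mutase, had a change of 0.30 ± 0.12 (limma adjusted p = 0.0858), also without overlap. Tpi1 (0.33 ± 0.16), Pgk1 (0.29 ± 0.18) and Gapdh (0.07 ± 0.12) encode triose phosphate isomerase, phosphoglycerate kinase and glyceraldehyde phosphate dehydrogenase, and their limma adjusted p-values were 0.152, 0.245 and 0.678. For Gapdh, often used as a reference gene, the 95% interval was -0.20 to 0.35. Gapdh, Pgam1 and Pgk1 have copies in the genome with mean normalized counts of 220, 316 and 434 to which reads may have been assigned. In 6 of the 8 genes Qk-KO replicate 3 was the highest Qk-KO library, as it was in 18 of all 35 members.

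Lactate dehydrogenase is a tetramer of subunits encoded by Ldha and Ldhb. Ldhb (chromosome 6, 142490249 to 142507957), whose subunit predominates in oxidative tissues, had log2 values of 11.40, 11.58 and 11.47 in WT against 9.77, 9.85 and 10.21 in Qk-KO. The 3 Qk-KO libraries lay more than 1 log2 unit below the lowest WT library, and the change was -1.54 ± 0.14 (limma adjusted p = 0.000282), 2.90 times lower. With Qk-KO replicate 1 alone it was -1.72 (limma adjusted p = 0.000424). Ldha, whose subunit predominates in glycolytic tissues, had 10.18, 10.24 and 10.49 in WT against 9.77, 9.98 and 10.52 in Qk-KO. Its groups overlapped, and the change was -0.22 ± 0.20 (95% interval -0.67 to 0.24, limma adjusted p = 0.434). Ldha therefore made up 16.9%, 15.8% and 19.5% of the per-kilobase level of the pair in WT and 32.2%, 34.2% and 36.9% in Qk-KO. The level of the pair was 2210 ± 124 in WT and 970 ± 202 in Qk-KO.

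**Figure D3:**
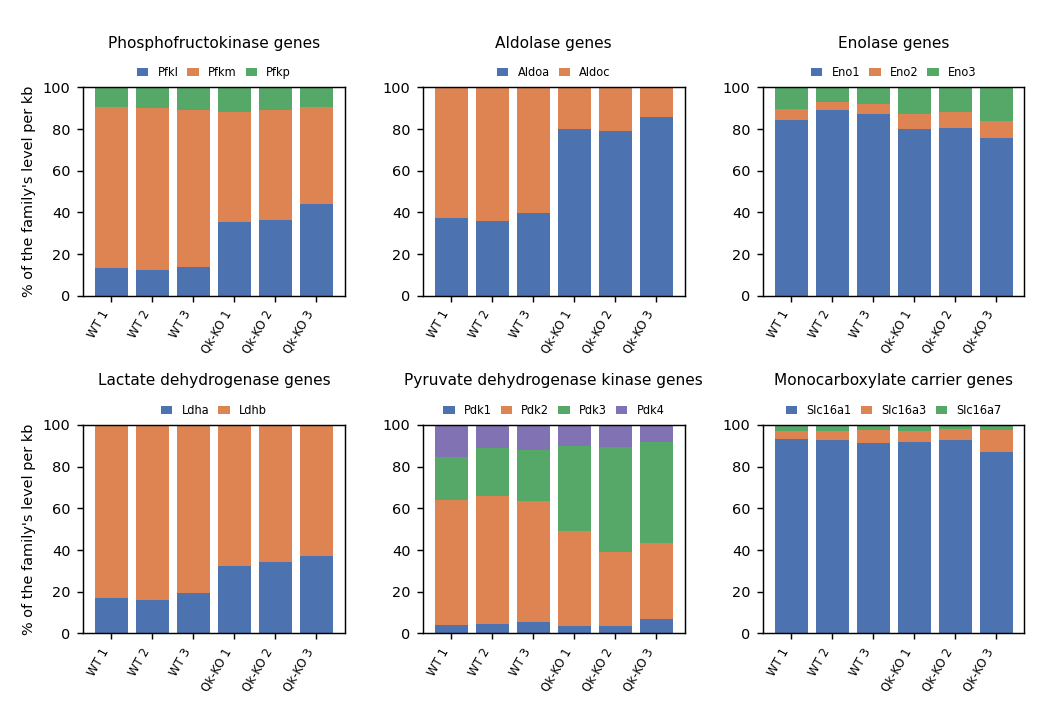
Share of each paralog in the summed level per kilobase of exon of its family (percent, vertical axis) in each of the 6 libraries. Pfkl, Aldoa, Ldha and Pdk3 take larger shares in all 3 Qk-KO libraries than in any WT library, whereas Slc16a1 makes up most of its family in all 6 libraries.

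The carriers that export lactate or bring pyruvate into mitochondria were not called in the 6-library fit. Slc16a1, which encodes the lactate carrier of oligodendrocytes, had log2 values of 11.63, 11.73 and 11.72 in WT against 11.78, 12.04 and 11.79 in Qk-KO. All Qk-KO libraries were slightly above WT, and the change was 0.18 ± 0.12 (95% interval -0.09 to 0.44, limma adjusted p = 0.273). It made up 92.4% ± 0.989 of the level of the 3 carrier genes in WT and 90.5% ± 2.89 in Qk-KO. Slc16a3, a lactate exporter of glycolytic cells, had 7.36, 7.61 and 8.10 in WT against 7.92, 8.16 and 9.01 in Qk-KO (change 0.67 ± 0.31, limma adjusted p = 0.133). Here the groups overlapped and replicate 3 was the highest in each. Slc16a3 was called with the replicate number as a block (0.67, limma adjusted p = 0.0226) and with the sample number series of the labels as a term (0.92, 0.0156). Slc16a7, known as a neuronal carrier, had a change of 0.07 ± 0.14 (limma adjusted p = 0.743). Mpc1 and Mpc2 encode the partner proteins of the mitochondrial pyruvate carrier, with changes of 0.34 ± 0.11 and 0.20 ± 0.18 (limma adjusted p = 0.0547 and 0.432). The groups did not overlap for Mpc1, and the authors' deposited table gives it 0.43 (adjusted p = 0.0488).

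In the pyruvate dehydrogenase complex, the genes for the alpha and beta subunits of its decarboxylase moved in opposite directions. Pdha1 (chromosome X, 160122209 to 160138413), the alpha subunit and the target of the kinases, had log2 values of 10.72, 10.84 and 10.68 in WT against 10.27, 10.28 and 10.33 in Qk-KO. The Qk-KO libraries lay close together below all WT libraries, and the change was -0.45 ± 0.10 (limma adjusted p = 0.0134), 1.37 times lower, although 0.60 with scaling by library total alone. Without Qk-KO replicate 2 its adjusted p was 0.0625, and Qk-KO replicate 1 alone gave -0.48 (limma adjusted p = 0.0587). Pdhb (chromosome 14, 8165996 to 8173025), the beta subunit, had 9.49, 9.71 and 9.77 in WT against 9.99, 10.18 and 9.99 in Qk-KO. Here the Qk-KO libraries lay above all WT libraries, and the change was 0.40 ± 0.12 (limma adjusted p = 0.0445), 1.32-fold higher.

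The call of Pdhb was lost without WT replicate 1, 2 or 3 (adjusted p = 0.145, 0.0814 and 0.0727) and without Qk-KO replicate 2 or 3 (0.170 and 0.0578), and Qk-KO replicate 1 alone gave 0.34 (limma adjusted p = 0.230). Within a library, where scaling cancels, Pdha1 minus Pdhb was 1.23, 1.13 and 0.91 in WT against 0.27, 0.10 and 0.34 in Qk-KO. The difference was thus smaller in every Qk-KO library than in any WT library, though the pair was chosen after its values had been seen. Dlat and Dld, the acetyltransferase and the dihydrolipoyl dehydrogenase of the complex, had changes of 0.10 ± 0.14 and -0.06 ± 0.16 (limma adjusted p = 0.602 and 0.811). Pcx, which encodes pyruvate carboxylase and feeds pyruvate into oxaloacetate, had 0.26 ± 0.13 (limma adjusted p = 0.171).

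Of the 4 kinases that inactivate the complex, Pdk3 rose. Pdk3 (chromosome X, 93764607 to 93832201) had log2 values of 9.14, 9.51 and 9.32 in WT against 10.57, 10.73 and 10.49 in Qk-KO. The lowest Qk-KO library was almost 1 log2 unit above the highest WT library, and the change was 1.28 ± 0.13 (limma adjusted p = 0.000529), 2.42-fold higher. With Qk-KO replicate 1 alone it was 1.25 (limma adjusted p = 0.00487). Pdk2, the most abundant kinase gene in WT, had 11.01, 11.21 and 10.89 in WT against 11.03, 10.55 and 10.38 in Qk-KO. Its replicate 1 lay among the WT libraries and replicates 2 and 3 below them, and the change was -0.39 ± 0.18 (limma adjusted p = 0.140).

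Pdk3 made up 20.3%, 23.2% and 24.1% of the per-kilobase level of the 4 kinase genes in WT and 40.8%, 50.2% and 48.5% in Qk-KO. Pdk2 made up 59.7% ± 1.57 and 39.2% ± 5.32, while the level of all 4 was 1120 ± 101 and 1310 ± 151, with overlapping values. Pdk1, known as a hypoxia-responsive kinase gene, had a change of 0.12 ± 0.21, and Pdk4, known as a starvation-responsive one, -0.18 ± 0.20 (limma adjusted p = 0.696 and 0.529). Pdp1, a phosphatase that reactivates the complex, was lower in all Qk-KO libraries (8.04, 8.04 and 8.03 in WT, 7.61, 7.90 and 7.63 in Qk-KO) but not called (-0.32 ± 0.14, limma adjusted p = 0.121).

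**Figure D4:**
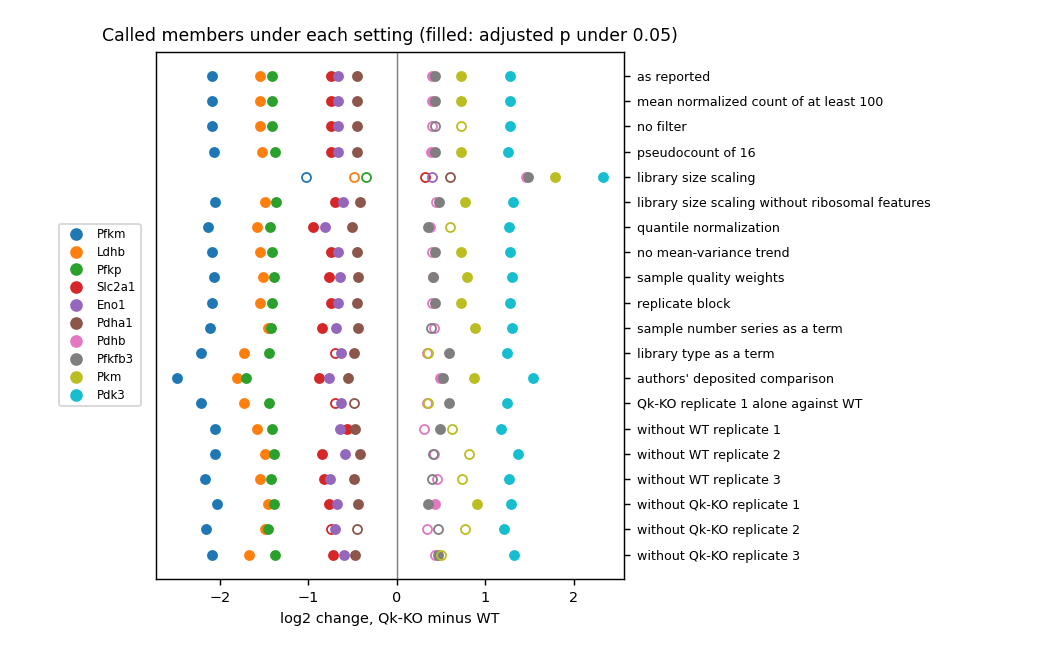
Log2 change (Qk-KO minus WT, horizontal axis) of the 10 called members as reported and under each alternative (rows), filled where the adjusted p was under 0.05 and open where it was not. Pdk3 is filled in every row, and Pfkm, Pfkp, Ldhb and Eno1 in every row but that for library size scaling, where Pfkfb3, Pkm and Pdk3 are filled and Slc2a1, Eno1 and Pdha1 lie above 0.

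Every direction above is relative to the authors' scaling, under which the median tested feature changed by 0.03. Scaling by library total alone moved that median to 1.09 and the median of the members to 1.18, and 97.3% of its calls were higher, against 48.2%. Under it Pfkm was at -1.03, Ldhb at -0.48 and Pfkp at -0.35, none of them called. That scaling moves all genes of a library by the same amount. The place of a member relative to the median of all features therefore could not change. With the ribosomal features left out of the total, the median tested feature changed by 0.07 and 50.4% of calls were higher. Slc2a1 was then at -0.70, Eno1 at -0.61, Pdha1 at -0.41 and Pfkm at -2.05. Of the 10 called members 9 kept their call, and Pdhb lost it. With library type as a term, Slc2a1 was at -0.70, Pdhb at 0.34 and Pkm at 0.36, none of them called. These are the changes of Qk-KO replicate 1 alone, since the other Qk-KO libraries are those of low ribosomal signal. Without Qk-KO replicate 1, which leaves only Qk-KO libraries of low ribosomal signal so that genotype and library type cannot be told apart, limma also called Hk2 (1.15, adjusted p = 0.0478), Gpi1 (0.50, 0.0133), Aldoa (0.73, 0.00522), Tpi1 (0.48, 0.0284), Pgk1 (0.49, 0.0112), Pgam1 (0.38, 0.0269) and Mpc1 (0.41, 0.0251) higher and Pdk2 (-0.57, 0.0129) lower.

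Other genes of the same steps, 43 by name, gave 29 tested features, of which 6 were called higher and 8 lower (median -0.05). Of all tested features, 13.8% were called higher and 14.8% lower. The calls that held without each library in turn included Aldoc, the aldolase typical of astrocytes, with log2 values of 13.82, 14.03 and 13.58 in WT against 11.21, 11.76 and 11.31 in Qk-KO (-2.38 ± 0.18, limma adjusted p = 0.000138). It was the more abundant aldolase gene in every WT library and the less abundant in every Qk-KO library, since Aldoa made up 37.2%, 35.8% and 39.8% of the pair in WT and 80.1%, 79.1% and 86.0% in Qk-KO. Bsg, which encodes basigin, the chaperone that brings monocarboxylate carriers to the cell surface, had -0.77 ± 0.15 (limma adjusted p = 0.00706), although 0.29 with scaling by library total alone. Slc16a1 minus Bsg was -1.65, -1.46 and -1.67 in WT against -0.52, -0.47 and -0.95 in Qk-KO. Tigar, a phosphatase that lowers the activator of phosphofructokinase, rose by 1.01 ± 0.14 (limma adjusted p = 0.00158), and Ldhd, a mitochondrial D-lactate dehydrogenase, by 0.74 ± 0.15 (0.00976). Pgm2, a phosphoglucomutase family member (-1.34), and the hexose transporter genes Slc2a12 (-1.19) and Slc2a10 (-0.90) were lower, with limma adjusted p-values of 0.000458, 0.00443 and 0.00582; with scaling by library total alone Slc2a10 was at 0.16. With Qk-KO replicate 1 alone, Ldhd (0.53, limma adjusted p = 0.147) and Slc2a10 (-0.88, 0.0593) were not called.

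The other calls named from that list were each lost without at least 1 library. Among those called higher, Slc2a6, a hexose transporter gene (1.04, limma adjusted p = 0.0236), reached 0.0724, 0.0729 and 0.0663 without WT replicate 1, 2 or 3. Bpgm, which makes bisphosphoglycerate (0.58, 0.0142), reached 0.0607, 0.0600 and 0.0631 without WT replicates 1 or 3 or Qk-KO replicate 2. Pdpr, a regulator of the complex's phosphatase (0.44, 0.0223), reached up to 0.0947 and Pgam5, a mitochondrial protein phosphatase rather than a mutase (0.55, 0.0215), up to 0.0898, both without Qk-KO replicate 2. Among those called lower, Slc16a9, a carrier family member (-0.65, 0.0123), reached 0.0515 when WT replicate 3 was left out and 0.0529 without Qk-KO replicate 2. It lay at 0.40 with scaling by library total alone.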

How the data were processed

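The deposited table held, per feature and library, the authors' regularized log2 values, a mean normalized count (a signal, made by the authors), and the authors' DESeq2 comparison with its log2 fold change, Wald score and p-values, per the file headers. The submitters' processing notes name FastQC, TopHat2 2.0.14, featureCounts, DESeq2 and the mm10 build, without their order or settings; the annotation release and strand setting: not given in the sources used here. Both members and lists were chosen with earlier results of these data known. limma 3.58.1 (R 4.3.3), with a mean-variance trend, was fitted to the deposited log2 values of all 6 libraries over the 15153 features whose mean normalized count reached 20; p-values were two-sided with Benjamini-Hochberg adjustment, called under 0.05. Depth was estimated from the steps of the mean normalized count. Levels per kilobase are back-transformed log2 values divided by the length of all annotated exons of the gene, overlaps counted once. Exons were those of GENCODE M21, in which 46488 of 46983 identifiers were found with the version ignored. Regularized values are shrunken toward the gene's mean, low genes most, so the changes and folds given here are smaller in size than those of the authors' table for all 10 called members (for Pfkm -2.09 against -2.48). Genes named besides the members were the called genes of the pathway lists, up to 6 per list and direction, and the most abundant genes of each marker list. For Itgam, with 2 features, the one with the higher mean was kept. The fit was tested on simulated data.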

Additional observations from a re-analysis of the deposited data

How the results depend on the processing

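Against 4330 genes called in all, scaling by library total alone gave 2447, library type as a term 2258 (38.7% of them higher), Qk-KO replicate 1 alone 2355 (39.7% higher), and leaving out 1 library 2370 to 5633. Members called higher, 4 as reported, numbered 1 with no filter on low values (5.90% of all features called higher), 7 with scaling by library total alone (15.7%), 8 with sample quality weights (16.8%), 2 with library type as a term (5.76%), 8 in the authors' deposited table (16.5%), 2 with Qk-KO replicate 1 alone (6.17%), and 1 to 11 when 1 library was left out (6.13% to 18.7%; 11 without Qk-KO replicate 1, at 18.7%). Members called lower, 6 as reported (14.8% of all features called lower), numbered 6 in the authors' deposited table (16.4%). With scaling by library total alone limma called 0 members lower, with 0 also at an unadjusted p under 0.05. Of all features, 0.429% were called lower there. That scaling also turned the sign of Slc2a1 (0.32), Eno1 (0.40) and Pdha1 (0.60). With ribosomal features left out of the total, limma called 3 members higher (12.7% of all features) and 6 lower (12.5%). With Qk-KO replicate 1 alone, leaving out a WT library gave 1 to 2 members called higher. The paralog shares held within the spread of the replicates in 148 of 160 alternatives, chosen after seeing the data. Where that spread was wide, large shifts also counted as held. The Qk-KO minus WT difference in the share of Hk1 went from -13.2 percentage points to -2.79 with Qk-KO replicate 1 alone. The difference in the share of Pfkp, 0.635 percentage points, was -3.04 without division by exon length. Replicate numbers did not pair the libraries: deviations from the group means correlated at 0.10, 0.00 and 0.08 for libraries with the same number. With the replicate block 4345 genes were called, with 4 members higher and 6 lower; Pdhb lost its call and Slc16a3 gained one (0.67, adjusted p = 0.0226). The depth of Slc2a3, 55 estimated reads in 1 library, limits the precision of the lowest members.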

Other observations

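Neighbouring pathways, described by lists chosen with earlier results known, also held calls in both directions, except the pentose phosphate list. Their counts stand beside 13.8% of all tested features called higher and 14.8% called lower. Of 8 tested pentose phosphate genes 2 were called higher by limma (median 0.24): Taldo1, which encodes transaldolase, rose by 1.24 ± 0.15 (limma adjusted p = 0.00107). G6pdx, the entry enzyme, rose by 0.50 (0.0238), with 0.0815, 0.0878 and 0.0841 without WT replicates 1 or 3 or Qk-KO replicate 2. Of 12 genes of the NADH shuttles and malic enzymes 4 were called higher and 4 lower (median 0.30). Gpd1, the cytosolic glycerol phosphate dehydrogenase, rose by 1.57 ± 0.15 (limma adjusted p = 0.000374), while its mitochondrial partner Gpd2 had -0.73 ± 0.11 (0.00206), although 0.33 with scaling by library total alone. Gpd1 minus Gpd2 was 0.68, 0.60 and 0.39 in WT against 2.71, 3.03 and 2.84 in Qk-KO. Slc25a13, an aspartate-glutamate carrier, had -0.89 (limma adjusted p = 0.00264) and Me1, the cytosolic malic enzyme, -0.83 (0.00639), although 0.17 and 0.23 with scaling by library total alone. With Qk-KO replicate 1 alone, Me1 (-0.52, limma adjusted p = 0.0587) and G6pdx (0.46, 0.147) were not called. The calls of Got2 (0.49), Me2 (0.54), Got1 (0.53) and Gpd1l (-0.64), also of these shuttles, were lost without at least 1 library, with limma adjusted p-values of up to 0.0533 and 0.0771 without Qk-KO replicate 2, 0.134 without WT replicate 1 and 0.145 without WT replicate 3.

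Of 20 genes of the tricarboxylic acid cycle 1 was called higher and 4 lower (median -0.02). Idh3a, a subunit of isocitrate dehydrogenase, had -0.82 ± 0.10 (limma adjusted p = 0.00120) and Suclg2, of succinyl-CoA ligase, -0.88 ± 0.17 (0.00682), although 0.24 and 0.18 with scaling by library total alone. Ogdhl, a relative of oxoglutarate dehydrogenase, had -1.66 ± 0.23 (0.00188). Sdha (0.45), of succinate dehydrogenase, and Cs (-0.42), citrate synthase, lost their calls, with up to 0.119 and 0.0917 without Qk-KO replicate 2. Of 22 regulators of glycolysis 2 were called higher and 4 lower (median 0.06). Ppargc1a, a coactivator of mitochondrial genes, had -2.42 ± 0.22 (limma adjusted p = 0.000287), and Epas1, which encodes a hypoxia-inducible factor subunit also abundant in endothelium, had -1.64 ± 0.23 (0.00170). Esrrg, an estrogen-related receptor gene, had -0.92 ± 0.20 (0.0123), although 0.14 with scaling by library total alone and -0.74 (0.150), not called, with Qk-KO replicate 1 alone. Ppargc1a and Epas1 were called there (-2.0 and -1.12, limma adjusted p = 0.000424 and 0.00640). Egln2 (0.41), Egln3 (0.68) and Hif1an (-0.41), which encode oxygen-sensing hydroxylases, lost their calls, with up to 0.121 for Egln2 and, for Hif1an, 0.0986 when Qk-KO replicate 2 was left out, and up to 0.108 for Egln3 without WT replicate 3. Beside these the endothelial and astrocyte lists were lower, as given above, and their part was not tested.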
